A study of Mus musculus and Rattus norvegicus with 26 samples.

Results

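Neuregulins and ErbB receptors were followed as 8 genes: the ligand genes Nrg1, Nrg2, Nrg3 and Nrg4 and the receptor genes Egfr, Erbb2, Erbb3 and Erbb4. A contig, meaning a stretch of intron covered by reads that lay close together, was taken when the gene symbol given with it equalled one of these 8 names. This gave 217 of the 112345 contigs in 6 lists of candidate cytoplasmic intron-sequence retaining transcripts (CIRTs). The 217 contigs lay in 62 of the 85860 introns listed, and an intron was counted once in each list that held it. Erbb4 held 170 of them (78.3%), Nrg4 held 29, and the other listed genes held 18 together. Erbb2 had no contig in any list.

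Each list pools several RNA libraries of one kind. Mouse dendrites (3 libraries) and mouse somas (3 libraries) came from the hippocampus of C57BL/6 mice at embryonic day 18. Rat dendrites (2 libraries) and rat somas (3 libraries) came from the Sprague-Dawley hippocampus at embryonic day 18. Embryonic day 18 is the age at which the hippocampus was taken. The neurons were then grown in primary culture before dendrites and somas were harvested. Dendrites were cut from these neurons and gathered in batches, so they hold cytoplasm and a small share of axons. A soma keeps its nucleus and the unspliced RNA within it. Brown adipose tissue (BAT) cells (6 libraries) were single cells from the interscapular depot of CD-1 mice at embryonic day 17.5. Cardiomyocytes (9 libraries) were single cells at embryonic day 14.5 from transgenic C57BL/6 mice. These animals carry the Fucci cell cycle probe mAG-hGem under the cytomegalovirus promoter, which is active in most cell types. The library numbers are those of the labels, and for BAT cells and cardiomyocytes the study gives a smaller number of cells, so it is not known which of these libraries the list holds. All 26 libraries were amplified by the aRNA procedure in 3 rounds, which starts from a poly-T primer.

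Neuregulins are growth factors with an EGF-like domain, and many are made as membrane proteins from which proteases release the signalling part. ErbB3 and ErbB4 bind neuregulins, ErbB2 binds no known ligand and works as the partner of the other receptors, and the EGF receptor (gene Egfr) binds EGF and its relatives. In the brain, neuregulin and ErbB4 act chiefly on inhibitory neurons and their synapses, in the embryonic heart they are needed for the growth of the ventricular wall, and Nrg4 is known as a factor secreted by brown fat. These roles belong to the proteins, and none of the values below measures protein or spliced mRNA.

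The lists give 1 number for an intron, its count of uniquely mapped reads, which stands beside every contig of that intron. A count was therefore used once per intron and cannot be divided among contigs. Counts are also given as RPM, reads per 1000000 reads of the same list, with a 95% exact Poisson interval that covers counting error only. Each condition is 1 pooled list, so there is no spread between replicates and no test between conditions was possible. Total reads ranged from 1007530 in rat dendrites to 17858440 in BAT cells. A gene without a contig is called not listed, since introns were also removed for reasons other than a lack of reads, and no limit is given for it.

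The lists were compared with marker genes of the labelled cells. Neuron markers listed numbered 9 of 13 in mouse dendrites and 11 of 13 in mouse somas, with 453 and 37050 RPM. In BAT cells they numbered 8 of 13 (616 RPM), with a median of 30 reads among those listed, against 72 reads in the smaller list of mouse dendrites. In cardiomyocytes they numbered 2 of 13 (369 RPM), with a median of 2253.5 reads. In the rat they numbered 3 of 13 in dendrites (646 RPM) and 6 of 13 in somas (4307 RPM). Brown adipocyte markers numbered 9 of 10 in BAT cells (8886 RPM) and 6 of 10 in mouse dendrites (425 RPM) and 3 of 10 in cardiomyocytes (287 RPM), Ucp1 included in each. Cardiomyocyte markers numbered 9 of 10 in cardiomyocytes (33094 RPM), 6 of 10 in BAT cells (1340 RPM), 5 of 10 in mouse dendrites (875 RPM) and 3 of 10 in mouse somas (1001 RPM). Astrocyte markers numbered 4 of 5 in mouse dendrites (966 RPM), 3 of 5 in mouse somas (142 RPM) and 4 of 5 in BAT cells (45.4 RPM). No astrocyte marker was listed in cardiomyocytes. Endothelial markers numbered 4 of 5 in mouse dendrites (639 RPM), 4 of 5 in mouse somas (733 RPM), 5 of 5 in BAT cells (206 RPM) and 2 of 5 in cardiomyocytes (288 RPM). Oligodendrocyte lineage markers numbered 3 of 8 in mouse dendrites (23.3 RPM), 2 of 8 in mouse somas (56.1 RPM), 4 of 8 in BAT cells (117 RPM) and 1 of 8 in cardiomyocytes (270 RPM). The share of all annotated mouse protein-coding gene names listed was 38.3% in dendrites, 26.3% in somas, 45.4% in BAT cells and 27.6% in cardiomyocytes. The part of other cell types in the values below was not tested.

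Erbb4 lies at chr1:68078760-69154633 on the minus strand (mouse build NCBIM37, the same assembly as mm9) and has 26 introns. Below are 2 stretches of intron 2 that carried a contig in 3 of the 4 mouse lists, shown because few Erbb4 positions recurred so often. Both lie inside the intron, at least 28518 nt from the nearest exon. Each is the part common to the 3 lists, written 5′ to 3′ along the gene, with capitals for the 20-base window richest in A where that window held at least 14 A.
Erbb4 intron 2 (chr1:68754892-68755095): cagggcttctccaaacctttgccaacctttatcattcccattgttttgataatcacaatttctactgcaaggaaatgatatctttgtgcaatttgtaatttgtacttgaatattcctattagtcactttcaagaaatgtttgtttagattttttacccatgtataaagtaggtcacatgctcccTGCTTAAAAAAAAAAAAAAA
Erbb4 intron 2 (chr1:68757600-68757751): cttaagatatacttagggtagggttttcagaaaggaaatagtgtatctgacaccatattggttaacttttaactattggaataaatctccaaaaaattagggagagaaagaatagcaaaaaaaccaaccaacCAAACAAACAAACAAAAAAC
The first was shared by dendrites, somas and BAT cells, and the second by somas, BAT cells and cardiomyocytes. In both the A-rich window lay at the 3′ end, with 15 A. The 3′ ends of the 3 contigs fell within 3 nt of each other in the first and within 33 nt in the second, and over the 4 Erbb4 places found in 3 lists this spread reached 111 nt. The middle 25 bases occurred 2 times in the genome for the first and 1 time for the second.

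Nrg4 lies at chr9:55068029-55174651 on the minus strand and has 7 introns. Intron 3 held 2 stretches with a contig in 3 mouse lists, which are the ligand positions that recurred most. In the first one the capitals mark the 20-base window richest in T, with 15 T at the 5′ end, and the second one has no such window.
Nrg4 intron 3 (chr9:55091564-55091688): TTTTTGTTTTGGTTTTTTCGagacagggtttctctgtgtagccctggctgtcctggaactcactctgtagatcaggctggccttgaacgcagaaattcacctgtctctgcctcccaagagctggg
Nrg4 intron 3 (chr9:55100152-55100317): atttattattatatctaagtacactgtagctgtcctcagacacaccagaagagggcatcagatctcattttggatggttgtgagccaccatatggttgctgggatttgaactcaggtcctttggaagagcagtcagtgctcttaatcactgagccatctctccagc
The first was shared by dendrites, somas and cardiomyocytes and the second by somas, BAT cells and cardiomyocytes. Their middle 25 bases occurred 1403 and 89 times in the genome, so both hold sequence that is present in many copies. The lists hold uniquely mapped reads only. Reads from such copies may be placed less surely than those of the Erbb4 stretches, which was not tested.

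Egfr, at chr11:16652206-16818161 on the plus strand, had 1 shared position in the mouse, in intron 20 of the transcript listed there, present in somas and BAT cells. It is shown for comparison, and no 20-base window inside it holds at least 14 A or 14 T. Both Egfr contigs there end beside a window of 15 A that runs past the stretch shown.
Egfr intron 20 (chr11:16803590-16803761): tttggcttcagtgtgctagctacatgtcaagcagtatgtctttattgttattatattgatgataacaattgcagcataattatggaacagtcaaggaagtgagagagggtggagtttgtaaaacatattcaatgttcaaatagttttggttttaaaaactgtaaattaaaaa

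Of the 8 genes, 5 were listed in mouse dendrites, 3 in mouse somas, 4 in BAT cells, 3 in cardiomyocytes, 2 in rat dendrites and 4 in rat somas. The mouse counts stand beside the shares of 38.3%, 26.3%, 45.4% and 27.6% of all names given above for dendrites, somas, BAT cells and cardiomyocytes. No such share was computed for the rat. Together the 8 genes held 1689 RPM in mouse dendrites (1643 to 1735) and 5467 in mouse somas (5361 to 5574). They held 988 in BAT cells (973 to 1002) and 4935 in cardiomyocytes (4896 to 4975). In the rat lists the sum was far smaller, at 35.7 (25 to 49.5) in dendrites and 133 (118 to 150) in somas. Most of the mouse sum came from Erbb4 and Nrg4.

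**Figure D1:**
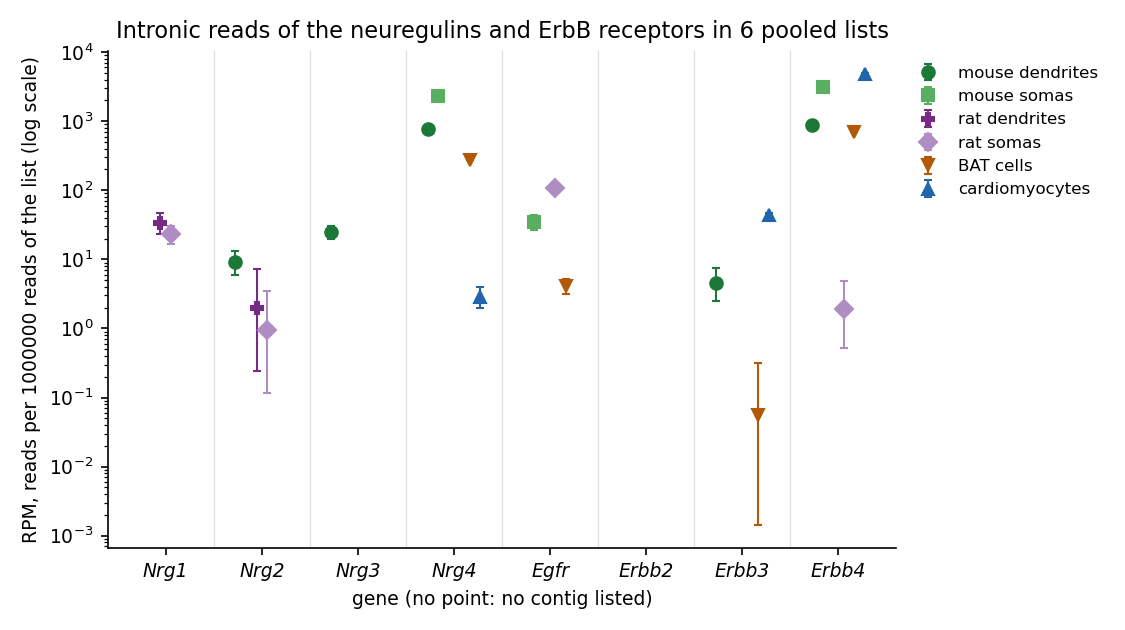
Intronic reads of each of the 8 genes as RPM on a log scale, in each of 6 pooled lists; bars are 95% exact Poisson intervals and a missing point means not listed. Without regard to intron length, Erbb4 and Nrg4 lie highest in mouse dendrites, somas and BAT cells, with Nrg4 falling to 2.87 in cardiomyocytes while Erbb4 reaches 4889 there.

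Among the ligands, Nrg1, the founding neuregulin, was listed in the rat only. Its intron 7 held 34 reads in dendrites (33.7 RPM, 23.4 to 47.2) and 48 reads in somas (22.9 RPM, 16.9 to 30.4). The ratio of dendrites to somas was 1.47, with an exact interval for counting error alone of 0.920 to 2.33, which includes both orders. Of the genes listed in both rat lists, 35.7% were at least 4-fold higher in dendrites and 24.6% in somas. A dendrite contig of 255 nt and the soma contig of 308 nt overlapped by 169 nt at chr16:64105936-64106104 of the rat build rn4. A second dendrite contig of 519 nt lay in the same intron, outside the soma contig.

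Nrg2, a neuregulin made chiefly in neurons, had 28 reads in mouse dendrites (9.07 RPM, 6.03 to 13.1), all in intron 6, and was not listed in the other mouse lists. It had 2 reads in intron 6 in rat dendrites and 2 reads in intron 4 in rat somas. Its rat ratio of 2.08 had an exact interval of 0.151 to 28.7 and carries no direction.

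Nrg3, a neuregulin of the brain that binds ErbB4, was listed in mouse dendrites only. Intron 5 held 68 reads and intron 6 held 8 reads, together 24.6 RPM (19.4 to 30.8). The gene (chr14:39182138-40286376, minus strand) is as large as Erbb4, but its first 4 introns, of 459873, 343677, 158863 and 102213 nt, were not listed. The introns with contigs measure 9763 and 15478 nt.

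Nrg4 was listed in all 4 mouse lists and in neither rat list. Mouse dendrites had 2376 reads (770 RPM, 739 to 801), of which 2364 were in intron 3 and 12 in intron 5. Mouse somas had 4333 reads (2335 RPM, 2266 to 2406), all in intron 3. Cardiomyocytes had 35 reads (2.87 RPM, 2.00 to 3.99), also in intron 3. Both cardiomyocyte contigs lie at the intron 3 stretches shown above, whose middle bases occur many times in the genome.
BAT cells had 4960 reads (278 RPM, 270 to 286) and spread them differently over the gene: 3079 in intron 5, 1064 in intron 3, 816 in intron 4 and 1 in intron 2. The order of the levels was somas, dendrites, BAT cells, cardiomyocytes, and no neighbouring counting intervals overlapped. In pooled libraries, fewer cells with the RNA and less RNA per cell cannot be told apart. Intron 3, of 38682 nt, is the longest of the gene and was the only Nrg4 intron present in all 4 mouse lists.

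Some BAT contigs of Nrg4 lay at annotated exons. In intron 4 a contig of 273 nt (chr9:55084327-55084599) and in intron 5 a contig of 617 nt (chr9:55083630-55084246) met the same 80-nt exon from its opposite sides. A second intron 4 contig, of 517 nt (chr9:55089351-55089867), ended at a 147-nt exon and lay wholly inside a 1508-nt exon of another annotated Nrg4 transcript. In intron 3 a contig of 74 nt (chr9:55096903-55096976) coincided base for base with a 74-nt exon of other Nrg4 transcripts. These 4 of the 14 BAT contigs of Nrg4 therefore touch exons, and since a count belongs to a whole intron, the reads of these contigs cannot be taken out of the 4960. They were the only contigs of the 8 genes in the mouse that touched an annotated exon, 4 of 209, whereas 25.5% of all mouse contigs did. In the BAT list the share among all contigs was 31.1%, so 4 of 14 is near the share of that list.

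**Figure D2:**
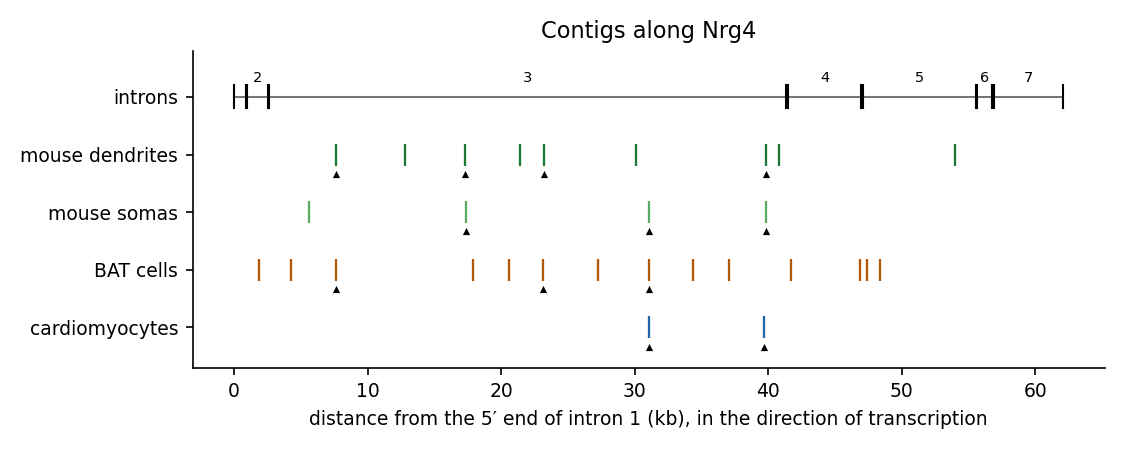
Positions of the contigs along Nrg4 in the 4 mouse lists, in kb from the 5′ end of intron 1 in the direction of transcription; ticks are contig centres, the top line shows numbered introns, and black triangles mark contigs that overlap a contig of another mouse list. Intron 3 has contigs in every list, while introns 4 and 5 have them mainly in BAT cells.

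Among the receptors, Egfr had 64 reads in mouse somas (34.5 RPM, 26.6 to 44.0) and 73 reads in BAT cells (4.09 RPM, 3.20 to 5.14). It was not listed in mouse dendrites or cardiomyocytes. All soma reads and 69 of the BAT reads were in intron 20, and 4 BAT reads were in intron 4 of another Egfr transcript. Rat somas had 225 reads (107 RPM, 93.8 to 122), of which 222 were in intron 14 and 3 in intron 18. The rat and mouse somas thus carried Egfr reads in different introns, with the caution that intron numbers follow each species' own transcript.

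Erbb2, the receptor that works as a partner, was not listed anywhere. Its mouse locus (chr11:98273784-98299030) spans 25247 nt and its longest annotated intron measures 7353 nt. No statement on its RNA follows from this.

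Erbb3, which binds neuregulins but has little kinase activity of its own, had 532 reads in cardiomyocytes (43.6 RPM, 40.0 to 47.5), all in intron 9 within 1 contig of 505 nt. Mouse dendrites had 14 reads (4.54 RPM, 2.48 to 7.61), with 10 in intron 2 and 4 in intron 9. BAT cells had 1 read, in intron 22. Intron 9 was the only Erbb3 intron listed in more than 1 list, and its dendrite contig (chr10:128017241-128017444) and cardiomyocyte contig (chr10:128017560-128018064) did not overlap.

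Erbb4, the neuregulin receptor with an active kinase, had the most contigs of the family. Mouse dendrites had 2719 reads in 12 introns (881 RPM, 848 to 915). Mouse somas had 5746 reads in 7 introns (3097 RPM, 3017 to 3178). BAT cells had 12603 reads in 10 introns (706 RPM, 693 to 718), and cardiomyocytes had 59649 reads in 8 introns (4889 RPM, 4850 to 4928). The order was cardiomyocytes, somas, dendrites, BAT cells, and no neighbouring counting intervals overlapped. With contigs of at most 400 nt the order of the last pair turned, with 1548 RPM in BAT cells and 1468 in dendrites. Rat somas had 4 reads, in intron 19, and rat dendrites had none listed.

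The lists drew on different introns of Erbb4. In mouse dendrites intron 4 held 29.3% of the Erbb4 reads, intron 3 held 27% and intron 2 held 17.1%. In mouse somas intron 20 held 38.8%, intron 2 held 35.1% and intron 3 held 13.1%. In BAT cells intron 16 held 64.7% and intron 3 held 19.9%. In cardiomyocytes intron 2 held 52.8%, intron 3 held 25.8%, intron 20 held 12.7% and intron 19 held 8.16%. Intron 4 with its 797 dendrite reads was not listed in somas, and intron 16 with its 8151 BAT reads was not listed in cardiomyocytes. Introns 2, 3, 12, 19 and 20 were present in all 4 mouse lists.

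**Figure D3:**
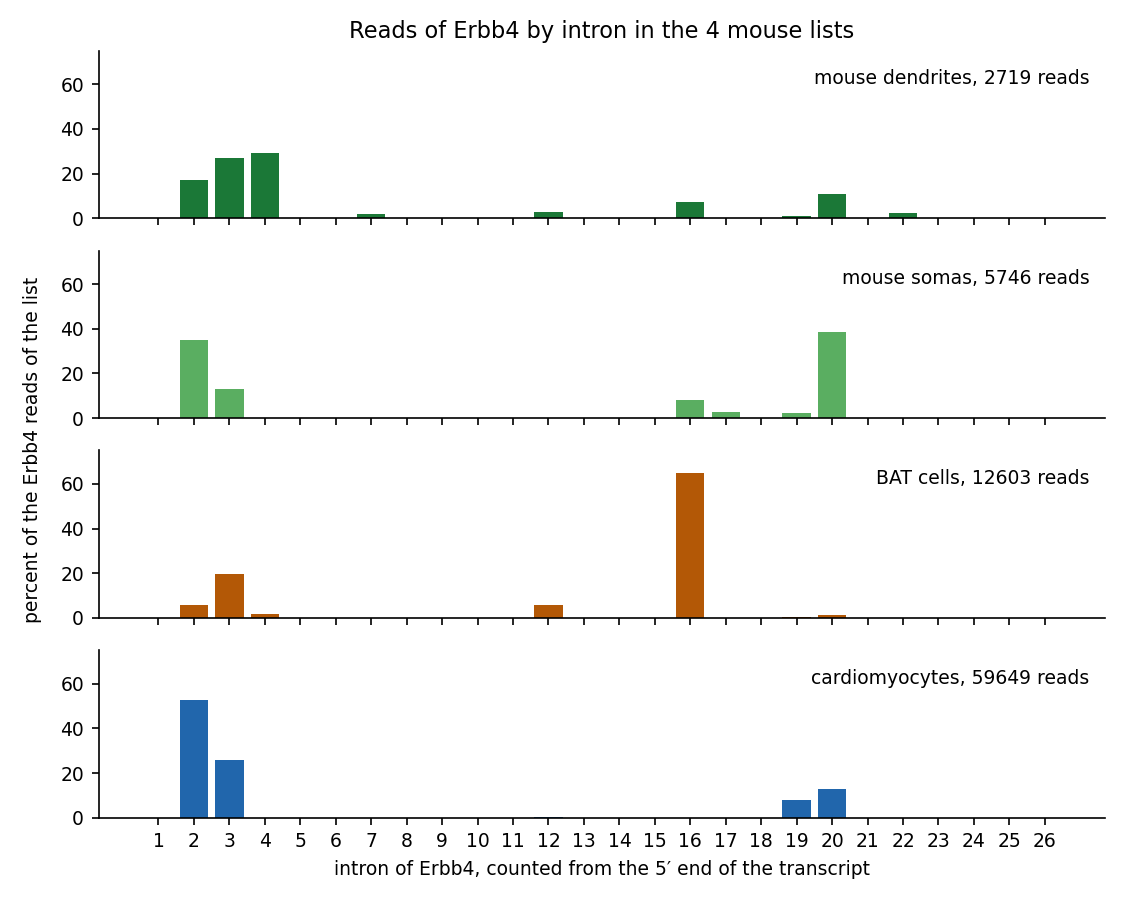
Percent of the Erbb4 reads of a list that fell in each of its 26 introns, numbered from the 5′ end, with 1 panel for each of the 4 mouse lists. The leading intron differs between panels: intron 4 in dendrites, intron 20 in somas, intron 16 in BAT cells and intron 2 in cardiomyocytes.

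Of the 26 introns, 14 were listed in at least 1 mouse list. The longest, intron 1 with 367141 nt and 34.5% of the intron bases of the gene, had no contig in any list. Intron 2 (179699 nt) had 59 contigs over the 4 lists, or 32.8 per 100 kb. Intron 3 (164180 nt) had 44, or 26.8 per 100 kb, and intron 20 (118046 nt) had 21, or 17.8 per 100 kb. These 3 introns together had 124 contigs, or 26.8 per 100 kb, and the 22 introns under 100 kb together had 45, or 19.2 per 100 kb. Intron 1, also longer than 100 kb and without a contig, is not in the first value. The values therefore do not compare long with short introns. Of those 22, 11 had no contig, while intron 4 (25660 nt) had 8, or 31.2 per 100 kb.

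First introns had no contig in the 6 members with a listed mouse transcript, 0 of 6 first introns, against 27.1% of first introns of all mouse genes with a contig. The Wilson interval of this share runs from 0 to 39.0% and includes the background. Introns of at least 100 kb were listed in 3 of 10 cases, all in Erbb4, against 16.2% among all these genes, and shorter introns in 23 of 94, against 31.6%. An intron that several transcripts of a gene share was counted 1 time. Nrg1 and Erbb2 had no listed mouse transcript and are not in these counts.

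**Figure D4:**
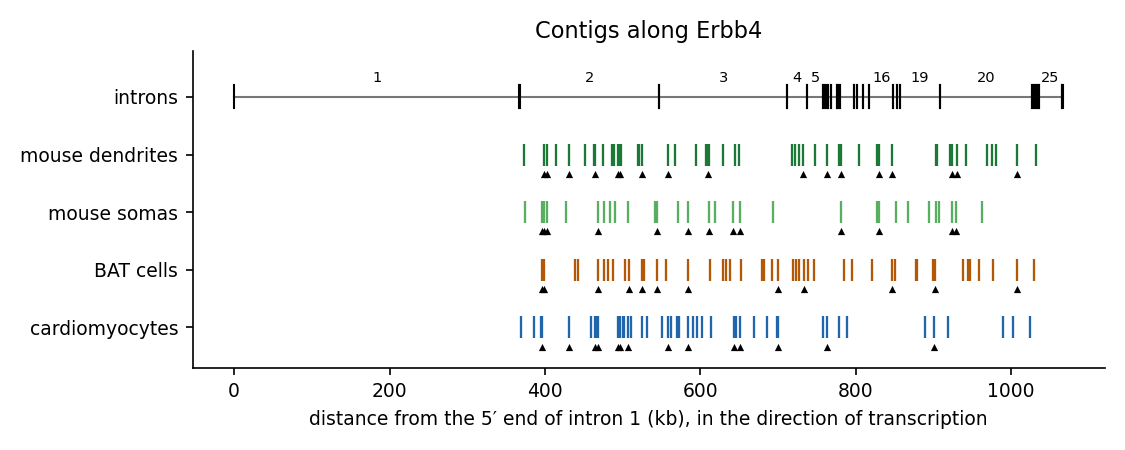
Positions of the 169 mouse contigs along Erbb4, in kb from the 5′ end of intron 1 in the direction of transcription; ticks are contig centres, the top line shows introns with the longer ones numbered, and black triangles mark contigs that overlap a contig of another mouse list. Contigs are absent from intron 1 and present in introns 2 and 3 in every list.

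Between mouse dendrites and somas, the pair that sets cytoplasm against the cell body, both shared genes were higher in somas. Erbb4 was 3.52-fold higher (exact interval 3.36 to 3.68) and Nrg4 3.03-fold higher (2.88 to 3.19). Neither reached a 4-fold difference, although Erbb4 did so when the 100 introns with the most reads were left out of the totals or when ratios were divided by the median ratio of all genes. Of the 4739 genes listed in both, 33.2% were at least 4-fold higher in dendrites and 24.9% in somas. The 5 genes of the dendrite list included 3 (Nrg2, Nrg3, Erbb3) that were not listed in somas, each with 76 reads or fewer. Of all 8607 genes of the dendrite list, 55.1% were also listed in somas, so such absences were common. In Erbb4 and Nrg4 together, 7 introns were in both lists, 50.0% of the 14 dendrite introns and 87.5% of the 8 soma introns. Over all genes listed in both these shares were 38.1% and 55.4%.

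Somas, which came from cultured neurons, were also compared with the other single cells, and culture cannot be told apart from tissue here. Against BAT cells, Nrg4 was 8.41-fold higher in somas (8.07 to 8.76), Egfr 8.44-fold (5.94 to 12) and Erbb4 4.39-fold (4.25 to 4.53). All 3 passed 4-fold, as did 33.7% of the 5076 genes listed in both, and 26.7% were 4-fold or more higher in BAT cells. The Erbb4 difference was under 4-fold, at 3.75, when only contigs of at most 400 nt were kept, a setting that removes Egfr from the comparison, and 3.38-fold after division by the median ratio of all genes. All 9 soma introns of these genes were among their 16 BAT introns, and over all genes 61.3% of soma introns were in the BAT list and 30.2% of BAT introns in the soma list.
Against cardiomyocytes, Nrg4 was 814-fold higher in somas (584 to 1170), while Erbb4 was 1.58-fold higher in cardiomyocytes (1.54 to 1.62). The Nrg4 value rests on 35 cardiomyocyte reads, with both contigs at the many-copy stretches of intron 3. Among the 3700 genes listed in both, 37.0% were at least 4-fold higher in somas and 26.2% in cardiomyocytes.

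Between BAT cells and cardiomyocytes, Nrg4 and Erbb4 differed in opposite directions. Nrg4 was 96.8-fold higher in BAT cells (69.5 to 139). In intron 3, the only Nrg4 intron in both lists, the counts were 1064 in BAT cells and 35 in cardiomyocytes. The BAT value also holds 3079 reads of intron 5 and 816 of intron 4, where contigs touch exons. Erbb4 was 6.93-fold higher in cardiomyocytes (6.80 to 7.06), and Erbb3 was 779-fold higher there, with an interval of 139 to 30813 because the BAT value is 1 read. Egfr, with 73 BAT reads, was not listed in cardiomyocytes. Of the 5442 genes listed in both, 34.3% were at least 4-fold higher in BAT cells and 28.3% in cardiomyocytes. Differences of 4-fold were therefore common between these pooled lists. These differences also hold strain, age, the number of cells pooled and the way the cells were isolated, which cannot be told apart from tissue.

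Sharing an intron did not mean sharing a position. Among the mouse contigs of the 8 genes that lay in an intron listed elsewhere, 70 of 197 (35.5%, Wilson interval 29.2 to 42.4) overlapped a contig of another mouse list, against 47.3% of all such contigs. For Erbb4 it was 56 of 166 (33.7%) and for Nrg4 12 of 26 (46.2%). The background was not matched for intron length, whose median was 118046 nt for the 209 mouse contigs of the 8 genes and 4606 nt for all mouse contigs. Between any 2 mouse lists, 5 to 7 Erbb4 contigs overlapped. The overlaps formed 32 places, 26 in Erbb4, 5 in Nrg4 and 1 in Egfr; 6 of them were in 3 lists and none was in all 4. Of the 32 places, 21 included a dendrite contig. In 15 of the 44 overlapping pairs (34.1%) the 3′ ends lay within 25 nt of each other, against 40.7% over all genes. The 5′ ends did so in 12 pairs (27.3%), against 28.9%.

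The Erbb4 contigs lay mostly far from exons, although 3 lay 34, 69 and 194 nt from one. The median distance of the 209 contigs to an exon was 18549 nt, against 580 nt for all mouse contigs, but it was 26990 nt for Erbb4 and 2156 nt for Nrg4. The introns were longer too, with a median of 118046 nt for the 209 contigs and 164180 nt for those of Erbb4, against 4606 nt for all mouse contigs. The mouse contigs of Egfr and Erbb3 lay 29 to 2209 nt from an exon. Only the 3 BAT contigs of Nrg4 named above reached an end of their intron, 3 of 209 (1.44%), against 21.3% of all contigs. Median GC content was 35.9%, against 41.2% for all contigs, and it was 35.3% in Erbb4 and 41.2% in Nrg4. Median contig length was 328 nt, against 269 nt, and in cardiomyocytes it was 487 nt, against 283 nt. In BAT cells it was 240.5 nt, against 274 nt. With each intron cut into 3 equal parts, 59 of the 209 contigs lay in the 5′ part (28.2%), 76 in the middle (36.4%) and 74 in the 3′ part (35.4%). Over all mouse contigs placed in an intron these shares were 32.5%, 35.7% and 31.8%.

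The ends of the contigs were searched for a 20-base window with at least 14 A or at least 14 T within 50 nt of the end on either side, so that a window may reach past the contig, unlike the capitals shown above. This rule was chosen after sequences of these data had been seen, so its shares describe the contigs and are not a test. An A-rich 3′ end was present in 85 of 209 contigs (40.7%, 34.2 to 47.4), against 28.5% of all mouse contigs. It was most frequent in somas, at 23 of 35 (65.7%, 49.2 to 79.2) against 43.0%, and in cardiomyocytes, at 24 of 47 (51.1%, 37.2 to 64.7) against 33.1%. In dendrites it was near the background, at 19 of 63 (30.2%) against 29.0%. In BAT cells it was 19 of 64 (29.7%) against 21.9%.
Erbb4 carried most of this, with 22 of its 30 soma contigs (73.3%) and 24 of its 44 cardiomyocyte contigs (54.5%). Nrg4 had 8 of 29 (27.6%), none of them in somas or cardiomyocytes. A T-rich 5′ end was present in 64 of 209 (30.6%), against 29.6%. In dendrites, where it was more frequent than the A-rich 3′ end, it was 27 of 63 (42.9%) against 44.8%. It was 6 of 35 (17.1%) against 26.5% in somas, 19 of 64 (29.7%) against 24.9% in BAT cells and 12 of 47 (25.5%) against 19.4% in cardiomyocytes. The contigs of 1 intron share its base composition and are not independent, whereas the Wilson intervals treat them as if they were. Median GC content was below that of all contigs of the list in dendrites (36.3% against 40.9%), somas (34.6% against 41.6%), BAT cells (38.4% against 41.4%) and cardiomyocytes (34.0% against 41.0%), and its part in the A-rich ends was not tested.

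**Figure D5:**
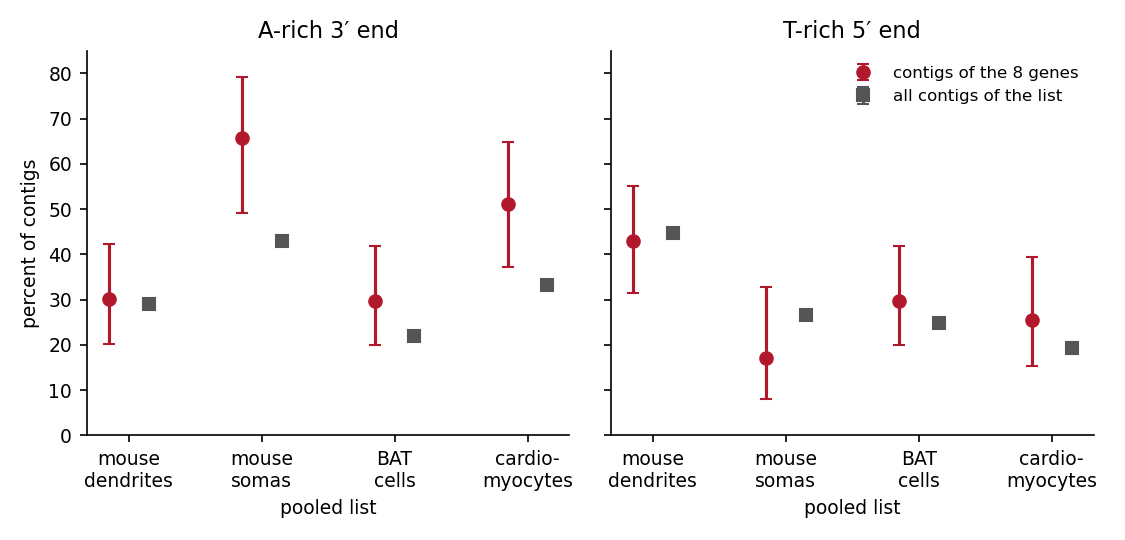
Percent of contigs with an A-rich 3′ end (left) or a T-rich 5′ end (right) in the 4 mouse lists, for the 8 genes (circles) and for all contigs (squares); bars are 95% Wilson intervals. In somas and cardiomyocytes the A-rich share of the 8 genes lies above that of all contigs, at 65.7% and 51.1%, while the intervals of the T-rich shares include that of all contigs. The window rule was chosen after seeing the data, and the intervals treat contigs as independent.

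Contigs that overlapped a contig of another mouse list had an A-rich 3′ end in 37 of 70 cases (52.9%). Contigs of shared introns without an overlap had one in 45 of 127 cases (35.4%). Over all genes these shares were 35.2% and 27.2%. The 70 contigs make up 32 places, each counted in 2 or 3 lists, and the soma list has both more overlaps and more A-rich ends, so the split is not independent of the list. An unbroken run of 10 A within 300 nt downstream was rarer, at 18 of 209 (8.61%, 5.52 to 13.2) against 9.36%. It was present in 10 of 35 soma contigs (28.6%) against 18.5% and in 3 of 63 dendrite contigs (4.76%) against 8.08%. In BAT cells it was 3 of 64 (4.69%) against 7.34%, and in cardiomyocytes 2 of 47 (4.26%) against 9.42%. A run of 10 T within 300 nt upstream was present in 14 of 209 (6.70%) against 10%.

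The other genes of the pathway were counted from a list of 93 in 6 groups. Of these, 69 were listed in mouse dendrites, 56 in mouse somas, 71 in BAT cells, 55 in cardiomyocytes, 44 in rat dendrites and 36 in rat somas. The mouse numbers stand beside the shares of protein-coding names given above (38.3%, 26.3%, 45.4% and 27.6%), and the rat numbers have no such share. The median count of the listed pathway genes was 200 in mouse dendrites, 84 in mouse somas, 906 in BAT cells and 559 in cardiomyocytes. Over all listed genes it was 78, 46, 169 and 158, without regard to intron length. In rat dendrites it was 59.5 against 32 over all listed genes, and in rat somas it was lower, at 11 against 54.

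Of 10 other ligands of the family, 6 were listed in mouse dendrites, 5 in somas, 6 in BAT cells and 5 in cardiomyocytes. Ereg, which encodes the EGF receptor ligand epiregulin, was listed in cardiomyocytes only, with 3406 reads (279 RPM). Tmeff1, which encodes a membrane protein with an EGF-like domain, was listed in all 6 lists, with 131 RPM in BAT cells, 53.9 in mouse somas, 40.8 in mouse dendrites and 0.820 in cardiomyocytes. Of 9 enzymes that release ligands or cleave receptors, 7 were listed in dendrites, somas and cardiomyocytes each and 6 in BAT cells. Bace1, the protease that processes neuregulin 1, was listed in all 6 lists, with 2239 RPM in rat dendrites, 856 in mouse dendrites and 514 in mouse somas. Adam9, a membrane protease, reached 1113 RPM in cardiomyocytes against 11.7 in mouse dendrites.

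Of 12 genes that restrain or degrade the receptors, 10 were listed in dendrites, 7 in somas, 10 in BAT cells and 8 in cardiomyocytes. Cblb, a ubiquitin ligase of receptor tyrosine kinases, was at 3278 RPM in cardiomyocytes and 1474 in BAT cells and was not listed in mouse somas. Wwp1, a ubiquitin ligase that acts on ErbB4, was at 1550 RPM in BAT cells and 118 in cardiomyocytes. Of 12 scaffolds and partners of the ErbB4 tail, 10 were listed in dendrites, 7 in somas, 10 in BAT cells and 7 in cardiomyocytes. Dlg2, a synaptic scaffold, was at 2777 RPM in mouse somas and 1194 in mouse dendrites. Dlg1, its relative, was at 3184 RPM in BAT cells and 17.1 in cardiomyocytes.

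Of 21 adaptors and PI3 kinase genes, 15 were listed in dendrites, 13 in somas, 16 in BAT cells and 10 in cardiomyocytes. The adaptor Crk had 30968 reads in BAT cells, all in 1 intron, and 16 in mouse dendrites. The adaptor Gab2 had 19787 reads in rat somas, again in 1 intron, and at most 24 reads in any other list. Of 29 downstream kinases, 21 were listed in dendrites, 17 in somas, 23 in BAT cells and 18 in cardiomyocytes. Camk2d, a calmodulin-dependent kinase of heart and brain, was at 4276 RPM in cardiomyocytes and 940 in mouse somas. Braf, a kinase of the MAP kinase cascade, was at 1981 RPM in BAT cells and 1300 in cardiomyocytes.

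Genes with the most similar pattern over the 4 mouse lists were found by the Euclidean distance of log10(RPM + 1), and they are given here for 3 of the genes listed in at least 2 of these lists. For Erbb4 they were Rock1 (0.41), Qk (0.54) and Camk2d (0.55). For Egfr they were Ppcs (0.067), Gosr1 (0.075) and Pard6b (0.11), and for Erbb3 Tm4sf20 (0.054), Tmem184a (0.11) and Rbm45 (0.14). Each distance rests on 4 values, so these names describe the pattern and no more.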

How the data were processed

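RNA from 26 libraries was sequenced and, per the labels, each library belongs to 1 of 6 pooled lists. The authors mapped reads to mm9 or rn4, kept unique alignments, joined nearby intronic reads into contigs and removed introns that held predicted genes or known poly(A) sites. The deposited values are raw read counts per intron, repeated on each of its contigs. Libraries were not strand-specific. The file headers count positions from 0, so 1 was added to each start and end. The study describes a limit of 400 nt on contigs of whole cells, but 32.8% to 38.0% of the deposited contigs of each whole-cell list are longer, and all were kept.

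Genes were matched by symbol, and the 8 members and the gene lists were chosen with earlier results of these data known. Counts were summed over introns and divided by the list total. Exact Poisson, exact ratio and Wilson intervals (95%) were computed with Python 3.11.15, pandas 2.3.3, numpy 2.4.6 and scipy 1.17.1, and figures with matplotlib 3.10.9. The ratio step was tested on simulated data. With 1 list per condition, and no label in the lists for the library of a read, no test between conditions was made. Introns, exons and sequences came from GENCODE vM1 on NCBIM37, and rat sequence was not used here. All 8 members were named, with the 2 genes with the most reads of each pathway group and the 3 genes nearest in pattern to each member listed in at least 2 mouse lists. Alternatives kept contigs of at most 400 nt, kept introns with at least 32 or, as the higher minimum, 256 reads, left the 100 introns with the most reads out of the total, divided ratios by the median ratio, and changed tract length and window. The search for A-rich and T-rich windows and the overlap of at least 50 nt were chosen after seeing the data. Some sequences and the genes nearest in pattern to Nrg4 are not reported here.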

Additional observations from a re-analysis of the deposited data

How the results depend on the processing

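The lists pool their libraries, so no replicate could be left out. No paired analysis was possible because the lists carry no replicate numbers. RPM values depend most on what is kept. With contigs of at most 400 nt they became 2892 in mouse dendrites, 10700 in mouse somas, 92.2 in rat dendrites, 444 in rat somas, 2203 in BAT cells and 12836 in cardiomyocytes, since an intron keeps all its reads while 1 contig remains. In the same order, leaving the 100 introns with the most reads out of the total gave 2093, 7923, 59.0, 225, 1268 and 6516, and keeping introns above the higher read minimum gave 1979, 6621, 0, 0, 1011 and 5062. With at least 32 reads somas had 5617.

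Contigs of at most 400 nt left 5064 reads in mouse dendrites, 9462 in somas, 16927 in BAT cells and 59681 in cardiomyocytes, 19 contigs in somas and 22 in cardiomyocytes. It also left 5 introns shared by somas and BAT cells, and 1 gene (Nrg4) at least 4-fold apart between them. With at least 32 reads, 3 genes in 10 introns remained listed in mouse dendrites, 1 gene in 1 intron in rat dendrites, 2 genes in 2 introns and 2 contigs in rat somas, and 11 introns in BAT cells. With the higher minimum, 2 genes, 5 introns and 4651 reads remained in mouse dendrites, 5 introns and 9797 reads in somas, 2 genes, 7 introns, 41 contigs and 17079 reads in BAT cells, and 5 introns in cardiomyocytes. In both rat lists 0 genes, 0 introns, 0 contigs and 0 reads remained. Between mouse dendrites and somas 1 gene (Erbb4) passed 4-fold when the 100 introns were left out or ratios were divided by the median ratio of all genes. For single genes, 33 of 34 alternative ratios kept their direction, and the exception was rat Nrg1, at 0.885 after division by the median ratio. Runs of at least 8 A lay downstream of 15.8% of the contigs (14.1% of all contigs), and runs of at least 8 T upstream of 11.5% (15.6%). With a window of 1000 nt, runs of 10 T lay upstream of 13.9% (19.1%). The cause of these shifts, beyond what each setting keeps, was not tested.

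Genes with few reads set the limits: Nrg1, Nrg2, Nrg3, Egfr and Erbb3 hold at most 532 reads in any list, and a pooled list gives no spread between cells or cultures.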
